A study of Mus musculus with 24 samples.

Results

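Insulin acts on the liver through a short chain of proteins, and the mRNAs of 10 genes of that chain were followed in mouse liver: the receptor (Insr), its substrates (Irs1, Irs2), the regulatory and catalytic subunits of PI3-kinase (Pik3r1, Pik3ca), the kinases downstream of it (Pdpk1, Akt1, Akt2) and 2 adaptors that bind and inhibit the receptor (Grb10, Grb14). They were taken by gene symbol, and all 10 were found among the 23746 gene loci listed for each library. When insulin binds, the receptor phosphorylates the substrate proteins on tyrosine, these dock PI3-kinase, and the lipid it makes brings Pdpk1 and the Akt kinases to the membrane. In hepatocytes Akt phosphorylates the transcription factor FoxO1 and moves it out of the nucleus, and feeding by this route lowers genes of glucose production and raises genes of lipid synthesis. Irs2 is known from earlier work as a gene that FoxO proteins activate and that is high in the fasted liver.

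The study followed liver gene expression through fasting and refeeding with and without FoxO1. All mice were C57BL/6. In the acute model, FoxO1lox/lox mice carried floxed Foxo1 alleles and received virus by tail vein, either AAV8.TBG.eGFP (GFP control) or AAV8.TBG.Cre (knockout), an adeno-associated virus whose TBG promoter is active in hepatocytes, and livers were taken on day 21. All acute mice, controls included, had thus received virus. In the constitutive model no virus was given, and the controls were FoxO1lox/lox (wild type, WT). The knockouts (labelled FoxO1-/-) came from a cross of floxed mice with Albumin-cre mice, whose Cre is driven by the albumin promoter, active in hepatocytes. Which cells of the liver kept the gene in either model was not measured. The feeding states were a 4 h fast and the same fast followed by 1 h of food, which gave 8 groups of 3 libraries. Age and sex are not given in the sources used here. No label ties each of the 3 libraries to an animal of its own, so p-values here reflect only how far these samples scatter, and that scatter may be technical.

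The labels passed the check on the deleted gene: Foxo1 mRNA was at 0.212 to 0.571 FPKM in the 12 knockout libraries and at 4.21 to 6.81 FPKM in the 12 controls. FPKM, the unit of all levels here, is the fragment number scaled to transcript length and to all mapped fragments, so levels can be compared between genes. The 8 hepatocyte markers were present in every group, with a summed level of 4.91e+04 to 7.33e+04 FPKM, and of the adipocyte markers Adipoq, Lep and Plin1 were near 0, as were 4 of 5 pancreatic acinar markers and, of the bile duct markers, Cftr. Other markers of these 3 lists were present. A mean of 1 FPKM or more was reached by 3 of 6 adipocyte, 1 of 5 acinar and 1 of 6 bile duct markers. The lists summed to 15.4 to 27.2 FPKM (adipocyte), 10.1 to 24.1 FPKM (acinar) and 20.3 to 84.8 FPKM (bile duct). The markers near 0 therefore do not show that these cell types were absent. Each acute group held 1 library deeper than the rest of its group (GFP fasted 3, Cre fasted 1, GFP refed 3 and Cre refed 1). Depth was read from the fragment numbers that the deposited confidence bounds imply. These 4 libraries had 1.16 to 1.37 times the mean depth of the 24. The other 8 acute libraries had 0.55 to 0.67 times that mean and the constitutive libraries 1.1 to 1.27 times.

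The 10 genes spanned a wide range of levels, ordered over the 24 libraries by mean FPKM as Akt2 (31.1), Grb14 (24.3), Akt1 (15.1), Insr (12.2), Pik3r1 (11.03), Pdpk1 (3.81), Pik3ca (3.45), Irs1 (2.12), Irs2 (1.71) and Grb10 (0.605). Only Pik3r1 and Pdpk1 were neighbours in this order whose ranges did not overlap, and Insr and Pik3r1 were the least separated, with Insr higher in 14 of 24 libraries. The mRNAs of Insr, Akt1 and Akt2 were thus several times as abundant as those of the substrates, while Pdpk1 and Pik3ca lay closer to them. The genes also differed in how much they varied: the highest group mean was 5.42 times the lowest for Irs2, 2.61 times for Grb10 and 2.27 times for Pik3r1, but 1.25 times for Insr and 1.12 times for Akt2.

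**Figure D1:**
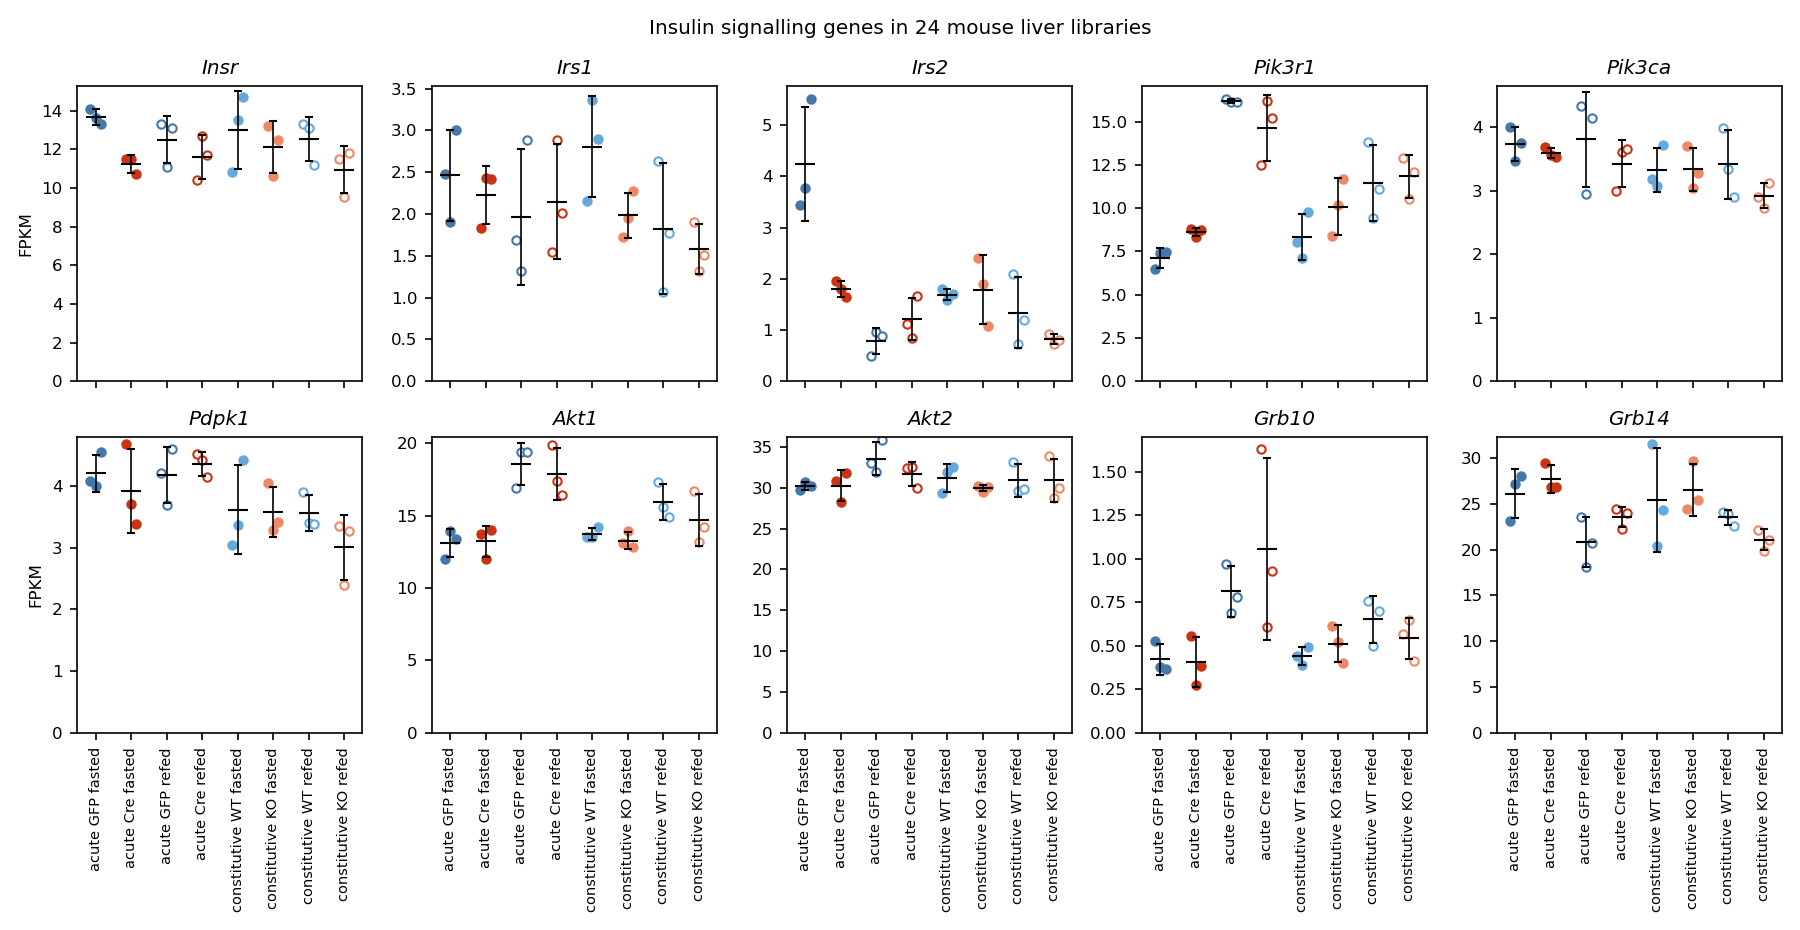
Level of each gene in FPKM (vertical axes, from 0) in the 24 libraries, by group (horizontal axis); points are libraries, filled for fasted and open for refed, and bars are the mean and SD of 3 libraries. Irs2 stands at 3.43 to 5.51 FPKM in the acute GFP fasted libraries and at 2.41 or less in all others, and Pik3r1 and Akt1 are higher in the refed acute groups, while Akt2 lies between 28.2 and 35.8 FPKM throughout.

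Across the members, refeeding changed the substrate Irs2, the PI3-kinase subunit Pik3r1, the kinase Akt1 and the inhibitors Grb14 and Grb10. The 2 inhibitors passed only in the mean over models and genotypes, where Grb14 fell and Grb10, in a fit with no filter, rose. No member passed the test in any knockout comparison. Changes were tested with limma on log2(FPKM + 1), a scale that understates changes of low genes, with p-values adjusted over all genes tested (Benjamini-Hochberg, two-sided) and called under 0.05. Of the 10 members, 9 passed the filter of at least 1 FPKM in at least 3 libraries. Grb10 reached 1 FPKM in 1 of 24 libraries and is given from a fit with no filter. In acute controls 3 of 9 members were called between refed and fasted, where 6.56% of all genes tested were. In acute knockouts 2 of 9 were called, against 5.44% of all genes. The members were chosen with earlier results of these data known, so an excess over these shares is no test of the set. Some members, called or not, had no overlap between fasted and refed libraries. In acute controls 4 were higher (Pik3r1, Akt1, Akt2, Grb10) and 2 lower (Irs2, Insr), where 19.9% and 7.23% of all genes were. In acute knockouts 3 were higher (Pik3r1, Akt1, Grb10) and 1 lower (Grb14), where 23% and 7.39% were. These shares are over genes that passed the filter, which Grb10 did not. In the constitutive model 0 of 9 were called in the controls, where the share of all genes was 0.318%, and 0 of 9 in the knockouts, where it was 5.68%. At an unadjusted p under 0.05, limma counted Irs1, Pik3r1 and Akt1 in the former and Irs2 and Grb14 in the latter, besides Grb10 in the former, where 15.6% and 25.5% of all genes fell under that p. In the mean of the 4 refeeding effects (2 models, 2 genotypes), fitted over all 24 libraries, 4 of 9 members were called against 30.3% of all genes, so that the share of members was not far from that of the genes at large.

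**Figure D2:**
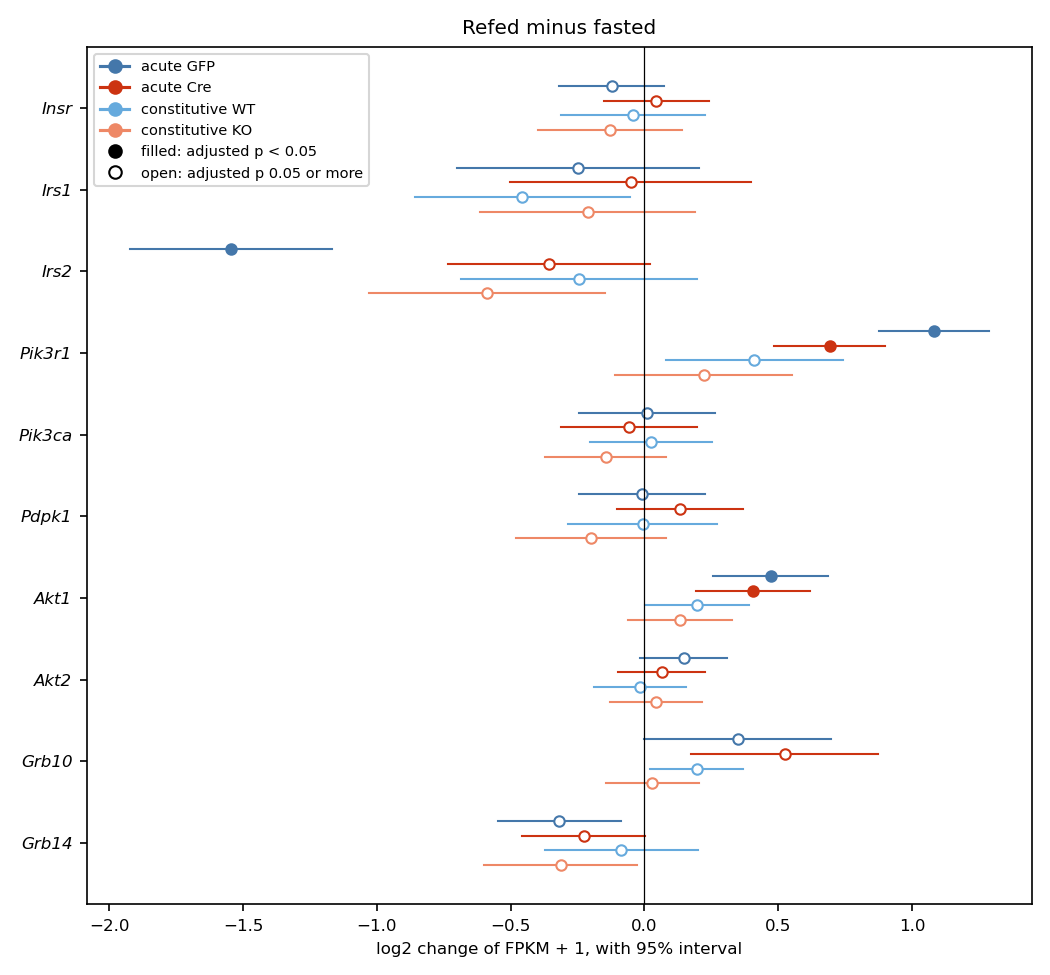
Change of each gene between refed and fasted liver as log2 of FPKM + 1 (horizontal axis) in the 4 arms, with 95% intervals from limma; filled points passed the test and Grb10 is from the fit with no filter. Pik3r1 and Akt1 lie to the right of 0 in all 4 arms, Irs2 and Grb14 to the left, and Pik3ca and Pdpk1 on both sides of 0.

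Markers of other cell types also stood higher in several refed groups, though not every list moved that way. The summed level of 8 stellate cell and fibroblast markers, 7 of them at a mean of 1 FPKM or more, was 41.1 to 88.6 FPKM in fasted and 80.2 to 89.8 in refed controls, and 40.5 to 55.6 in fasted and 76.1 to 97.3 in refed knockouts. The 8 endothelial markers, 7 of them at such a mean, summed to 29 to 57.7 and 52.3 to 69.2 FPKM in fasted and refed controls and to 18.4 to 35.8 and 40.8 to 64.2 in fasted and refed knockouts. Fasted and refed sums overlapped in controls and did not in knockouts. In wild-type constitutive livers the stellate and fibroblast sum was 50.1 to 57.5 FPKM fasted and 65.6 to 95 refed, higher without overlap, and the endothelial sum 30 to 34.4 and 30.9 to 37.2 FPKM. In constitutive knockouts these sums were 61.3 to 85.2 and 72.7 to 78.2 FPKM for the former list and 41.1 to 50.1 and 38.9 to 42.2 FPKM for the latter, both with overlap. None of the stellate, fibroblast and endothelial markers was near 0 throughout. Kupffer cell and macrophage sums were higher without overlap in refed wild-type livers (77.2 to 82.2 against 39.5 to 72.8 FPKM). In acute arms they overlapped, with medians going from 38.4 to 70.6 (controls) and 28.9 to 68.5 (knockouts). Low lymphocyte sums rose without overlap in acute controls (1.23 to 1.47 against 2.11 to 2.68 refed). Acinar sums fell without overlap in constitutive knockouts (16.2 to 21.8 against 11.1 to 12.4 refed). The part of these markers in the refeeding changes of Pik3r1, Akt1, Irs2, Grb14 and Grb10 was not tested.

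Insr, the receptor tyrosine kinase, was among the steadiest members. Its level was 14.1, 13.6 and 13.3 FPKM in acute GFP fasted livers and 11.5, 11.5 and 10.7 FPKM in acute Cre fasted livers. All 3 knockout libraries were thus below all 3 controls, but the difference of -0.26 ± 0.09 (SE, log2) did not pass the test over all genes (limma, adjusted p = 0.254), and 9.55% of all genes were lower without overlap in this comparison. Refed acute controls lay just below the fasted ones (-0.12 ± 0.09, adjusted p = 0.433). The refed acute groups overlapped, at 11.1 to 13.3 FPKM in controls and 10.4 to 12.7 FPKM in knockouts. Constitutive knockouts and controls overlapped as well, fasted (10.6 to 13.2 against 10.8 to 14.7 FPKM) and refed (9.55 to 11.8 against 11.2 to 13.3 FPKM). Refeeding moved Insr by -0.06 ± 0.05 in the mean of the 4 arms (adjusted p = 0.407), an interval of -0.18 to 0.05.

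Irs2, a substrate that recruits PI3-kinase to the receptor, was the member with the widest swings. In acute GFP controls it stood at 3.43, 3.78 and 5.51 FPKM in the fasted and at 0.495, 0.96 and 0.893 FPKM in the refed libraries. The groups did not overlap, and the fasted libraries were the highest 3 of all 24. Irs2 fell on refeeding by 1.55 ± 0.17 on the log2 scale (limma, adjusted p = 0.00125), and by 1.43 ± 0.21 with the 4 deeper acute libraries left out (adjusted p = 0.0277). Acute knockouts began lower, at 1.96, 1.81 and 1.64 FPKM in the fasted state, and stood at 1.12, 0.854 and 1.66 FPKM after refeeding. Here the groups overlapped by 1 library, and the change of -0.36 ± 0.17 did not pass (adjusted p = 0.233). In bulk liver, less RNA per cell cannot be told apart from fewer cells of a type.

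The same 12 libraries read by genotype placed all 3 acute knockouts below all 3 controls in the fasted state, a 2.35-fold lower mean. The log2 difference of -0.88 ± 0.17 had an unadjusted p of 0.000298 but missed the threshold over all genes (limma, adjusted p = 0.0611; 0.0592 to 0.31 over the alternatives). After refeeding the order of the group means was the other way round, 1.21 ± 0.408 FPKM in knockouts against 0.782 ± 0.251 in controls (SD, n = 3 each), with overlap and a log2 difference of 0.30 ± 0.17 (adjusted p = 0.641). The interaction, the difference between the refeeding effects of knockouts and controls, was 1.19 ± 0.24 (95% interval 0.66 to 1.72, unadjusted p = 0.000449) and did not pass over all genes either (limma, adjusted p = 0.293). In that test 0 of 9 members and 0.0287% of all genes were called, with Irs2, Pik3r1 and 6.6% of all genes under an unadjusted 0.05. Refeeding effects of knockouts and controls therefore cannot be called different for Irs2 by this test, although its refeeding change passed in controls only.

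The constitutive model did not show these swings of Irs2. Wild-type livers held 1.80, 1.58 and 1.70 FPKM fasted and 2.10, 0.734 and 1.19 FPKM refed, with overlap and a log2 change of -0.24 ± 0.20 (limma, adjusted p = 0.595). Constitutive knockouts held 2.41, 1.89 and 1.07 FPKM fasted and 0.926, 0.732 and 0.811 FPKM refed. All 3 refed knockout libraries were below the fasted ones, yet the change of -0.59 ± 0.20 missed the threshold (adjusted p = 0.0984), and 17.2% of all genes were lower without overlap. Knockout and control differed by 0.02 ± 0.20 fasted and -0.32 ± 0.20 refed, and the interaction was -0.34 ± 0.29 (adjusted p = 0.963).

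Set side by side, fasted controls held 3.43 to 5.51 FPKM of Irs2 in the acute and 1.58 to 1.80 FPKM in the constitutive model. These groups differ in virus and model, which cannot be told apart. They also differ in the summed level of erythroid markers (30.8 to 200 against 277 to 600 FPKM), whose part was not tested. Relative depth differed as well, at 0.552, 0.612 and 1.296 in the acute and 1.106, 1.098 and 1.229 in the constitutive fasted controls. The part of depth was not tested either. The refeeding effect in controls, acute minus constitutive, was -1.30 ± 0.28 (log2; unadjusted p = 0.000165), the fasted knockout effect -0.91 ± 0.28 (unadjusted p = 0.00425) and the refed knockout effect 0.63 ± 0.28 (unadjusted p = 0.0374). None passed over all genes (limma, adjusted p = 0.163, 0.335 and 0.435), in tests that called 0.00936%, 0% and 0% of all genes and 0 of 9 members each. At an unadjusted p under 0.05 they counted Irs2, Pik3r1 and Akt1 for refeeding and Irs2 alone for the knockout effects, where 9.41% (refeeding), 7.85% (fasted knockout effect) and 10.9% (refed knockout effect) of all genes did so. In the mean of the 4 arms Irs2 fell by 0.68 ± 0.10 (adjusted p = 5.21e-05), a mean of 4 negative values of which that of the acute controls was the largest.

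Irs1, the other substrate, did not pass in any comparison and was above Irs2 in 19 of 24 libraries. It ranged from 1.07 to 3.36 FPKM with wide spread inside groups, for example 2.48, 1.91 and 3 FPKM in acute GFP fasted and 1.69, 1.32 and 2.88 FPKM in acute GFP refed libraries. Those groups overlapped. In constitutive controls it was at 2.16, 3.36 and 2.90 FPKM fasted and at 2.63, 1.07 and 1.77 FPKM refed, a log2 change of -0.46 ± 0.18 (limma, adjusted p = 0.264). The mean refeeding effect was -0.24 ± 0.10 (adjusted p = 0.0816), below 0 in each of the 4 arms.

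Because a ratio of 2 genes within 1 library does not depend on how libraries were scaled, the substrates were also compared that way. Irs2 over Irs1 was 1.38, 1.98 and 1.84 in acute GFP fasted livers and 0.292, 0.726 and 0.31 in the refed ones. The substrate with the higher FPKM thus changed from Irs2 to Irs1 in these controls. Which of them is higher depends on the transcript lengths used for FPKM. Acute Cre fasted libraries had ratios of 0.678 to 1.07, and constitutive wild-type livers 0.471 to 0.835 fasted and 0.674 to 0.801 refed. Constitutive knockouts had 0.472 to 1.39 fasted and 0.484 to 0.553 refed. Refeeding thus shifted the ratio without overlap in acute controls, but not in acute knockouts (0.295 to 0.823 refed) or either constitutive genotype.

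The promoters of the members were searched for letters of DNA that FoxO proteins and other regulators of fasting genes bind, in the 250 bases before each RefSeq start. Of the 10 genes, 9 were matched in the RefSeq promoter windows used here (GRCm38.p6, the mm10 build), and the promoter of Insr was not analysed here. The motifs, each searched on both strands, were a FoxO core (GTAAACA), an insulin response core (CAAAACA, which reads TGTTTTG on the other strand), the E-box CACGTG and the half-site TGACG of the cAMP response element. Of 32851 promoters, 3.17%, 5.56%, 6.02% and 17.8% held them. The windows of Irs2 and Irs1 are shown because both hold an insulin response core next to an E-box, and those of Akt1 and Pik3r1 because these genes rose on refeeding. Capitals mark the matches, and all 4 are read 5′ to 3′ on the minus strand, at chr8:11008930-11009179, chr1:82291440-82291689, chr12:112674885-112675134 and chr13:101768218-101768467 in this order.
Irs2: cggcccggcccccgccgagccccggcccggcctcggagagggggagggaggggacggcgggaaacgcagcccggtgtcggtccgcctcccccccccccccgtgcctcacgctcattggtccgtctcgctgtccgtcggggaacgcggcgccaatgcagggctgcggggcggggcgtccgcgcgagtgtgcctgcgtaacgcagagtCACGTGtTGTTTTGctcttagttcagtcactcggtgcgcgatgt
Irs1: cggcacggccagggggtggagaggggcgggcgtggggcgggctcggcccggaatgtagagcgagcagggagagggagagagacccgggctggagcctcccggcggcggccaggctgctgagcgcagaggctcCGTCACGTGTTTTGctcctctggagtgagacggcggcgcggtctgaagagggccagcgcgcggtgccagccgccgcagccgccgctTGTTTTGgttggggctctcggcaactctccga
Akt1: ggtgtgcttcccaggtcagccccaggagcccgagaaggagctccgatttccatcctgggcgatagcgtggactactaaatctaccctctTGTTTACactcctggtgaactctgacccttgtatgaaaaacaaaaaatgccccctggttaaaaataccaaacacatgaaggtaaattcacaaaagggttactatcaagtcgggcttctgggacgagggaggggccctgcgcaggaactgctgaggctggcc
Pik3r1: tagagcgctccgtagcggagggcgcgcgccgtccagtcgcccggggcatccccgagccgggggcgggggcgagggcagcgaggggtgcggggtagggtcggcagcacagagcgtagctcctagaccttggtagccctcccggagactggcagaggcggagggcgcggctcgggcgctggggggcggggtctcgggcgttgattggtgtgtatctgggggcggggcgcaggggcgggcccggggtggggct

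Positions are counted back from the start, -1 being the base before it, and name the first base of a match. In the Irs2 window the E-box was at -44 and TGTTTTG at -37, with 1 base between them. In the Irs1 window 3 matches ran into each other, the half-site at -118, the E-box at -115 and the insulin response core at -111, each overlapping the next by 2 letters, and a further TGTTTTG was at -32. An E-box and an insulin response core that began within 15 bases of each other were found in 7 of the 32851 promoters (0.0213%), Irs1 and Irs2 among them. This pair and distance were chosen after the windows of Irs1 and Irs2 were seen, so the count describes how common their arrangement is and tests nothing. The Irs2 start used by RefSeq lies 499 bases upstream of the end of the locus in the deposited files. Akt1 had TGTTTAC, the FoxO core on the other strand, at -161 of the first of its 2 RefSeq starts, which lies 608 bases upstream of the end of the locus in the deposited files. The window of the other start, which is at that end, held no match. Pik3r1 had no match before its first start and a half-site at -35 of its second. Of the other members, Pdpk1, Akt2 and Grb10 had half-sites only, and Grb14 and Pik3ca none of these letters in their windows. The RefSeq start of Pik3ca lies 39086 bases upstream of its locus in the deposited files, so its window is not at the measured locus. The first RefSeq start of Pdpk1 lies 9328 bases upstream of its locus. These are matches of letters, not measured binding sites.

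Pik3r1, the regulatory subunit of PI3-kinase, had the largest rise of the members on refeeding on the log2(FPKM + 1) scale. As a plain ratio of refed to fasted means, that of the low gene Grb10 was larger in acute knockouts (2.61 against 1.7) and constitutive controls (1.48 against 1.37). In acute controls its level was 6.47, 7.43 and 7.49 FPKM fasted and 16.3, 16.1 and 16.1 FPKM refed. The fasted and refed libraries were far apart, with a log2 change of 1.08 ± 0.09 (limma, adjusted p = 0.000509). Acute knockouts went from 8.77, 8.34 and 8.74 FPKM to 12.5, 16.2 and 15.2 FPKM, again without overlap, and rose by 0.69 ± 0.09 (adjusted p = 0.00596). Without the 4 deeper libraries, the latter change was 0.81 ± 0.10 and no longer passed (adjusted p = 0.0521).

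Constitutive livers showed the same direction with more spread. Wild-type livers held 8.07, 7.12 and 9.77 FPKM of Pik3r1 fasted and 13.8, 9.43 and 11.1 FPKM refed (0.41 ± 0.15, limma, adjusted p = 0.232), and knockouts 8.37, 10.2 and 11.7 FPKM fasted and 12.9, 10.5 and 12.1 FPKM refed (0.22 ± 0.15, adjusted p = 0.387). In both genotypes the groups overlapped. The acute refeeding effect in controls was the higher by 0.67 ± 0.19, which did not pass (adjusted p = 0.266). Over the 4 arms the mean rise was 0.60 ± 0.07 (adjusted p = 2.78e-06).

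In the acute fasted state Pik3r1 was higher in all 3 knockouts than in all 3 controls, by 0.24 ± 0.09 (limma, adjusted p = 0.308), where 9.15% of all genes were higher without overlap. The fasted difference in the constitutive model was 0.25 ± 0.15 with overlap (adjusted p = 0.881), and the mean of both models was 0.25 ± 0.09 (adjusted p = 0.287). In refed livers the differences were -0.14 ± 0.09 and 0.06 ± 0.15, and the acute interaction was -0.39 ± 0.13 (adjusted p = 0.691).

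Pik3ca, the catalytic subunit, was nearly level, at 2.73 to 4.33 FPKM over the 24 libraries and with a mean refeeding change of -0.04 ± 0.06 (95% interval -0.16 to 0.07; limma, adjusted p = 0.596). The ratio of Pik3r1 to Pik3ca within a library went from 1.62 to 2.14 in fasted to 3.75 to 5.47 in refed acute controls, and from 2.34 to 2.48 to 4.14 to 4.48 in acute knockouts. In wild-type livers it went from 2.32 to 2.63 to 2.82 to 3.81, and in constitutive knockouts from 2.26 to 3.56 to 3.83 to 4.44. The refed ratios were above the fasted ones without overlap in all 4 arms, which was not so for the level of Pik3r1 itself. In constitutive knockouts the lower mean of Pik3ca after refeeding (2.925 against 3.343 FPKM) also raised the ratio. How often other pairs of genes separate in this way was not counted.

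**Figure D3:**
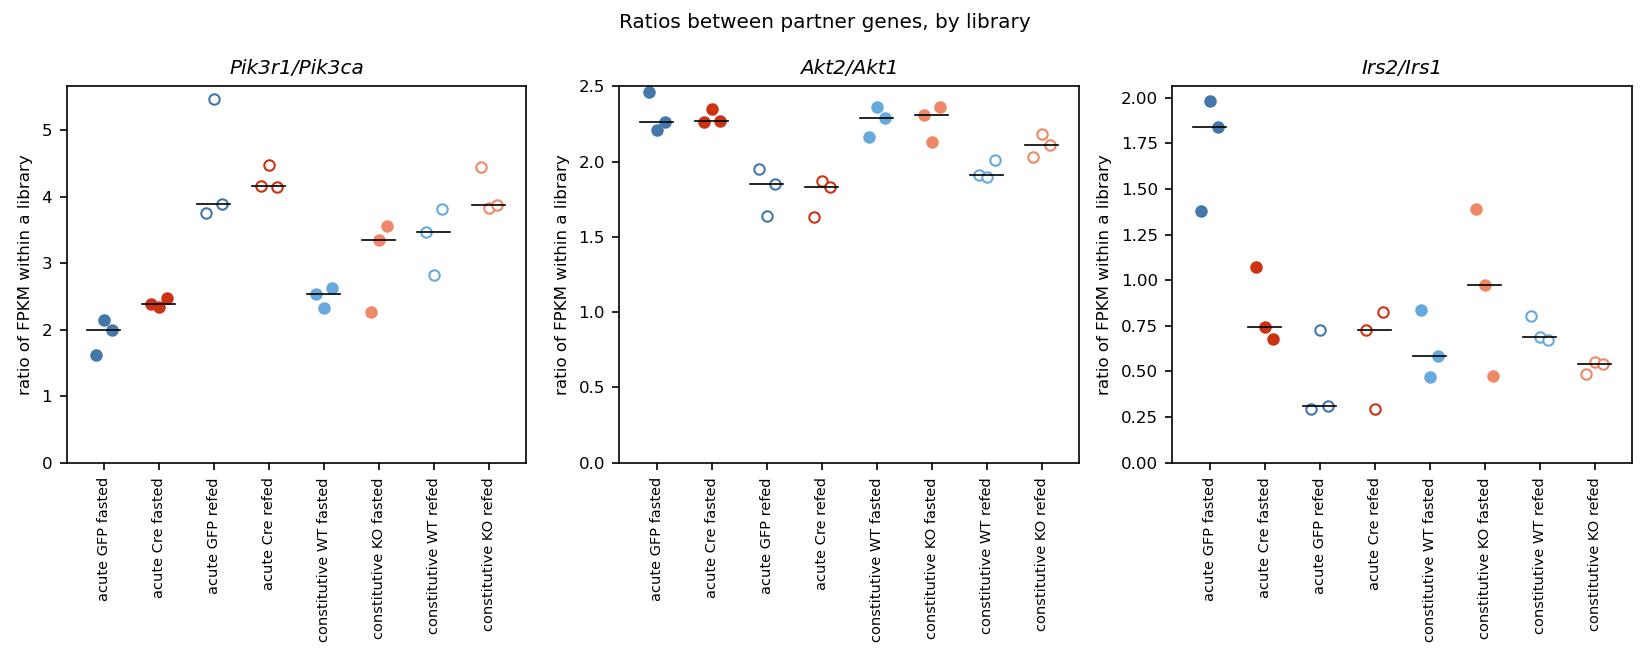
Ratio of the FPKM of 2 partner genes within each library (vertical axes, from 0), by group (horizontal axis); points are the 3 libraries, filled for fasted and open for refed, and the line is their median. Pik3r1 over Pik3ca is higher in refed libraries of each arm, Akt2 over Akt1 is lower in refed libraries of all arms except constitutive KO, where groups overlap, and Irs2 over Irs1 is above 1 in the 3 acute GFP fasted libraries and in 1 library each of acute Cre fasted (1.07) and constitutive KO fasted (1.39).

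Among the kinases, Akt1 rose on refeeding while Pdpk1 and Akt2 did not pass. Akt1 was at 12, 13.9 and 13.4 FPKM in fasted and 16.9, 19.4 and 19.4 FPKM in refed acute controls, with no overlap (0.47 ± 0.10, limma, adjusted p = 0.0188). Acute knockouts went from 13.7, 12 and 14 FPKM to 19.9, 17.4 and 16.4 FPKM, also without overlap (0.41 ± 0.10, adjusted p = 0.0381). Both calls lay near the threshold. The former was lost without GFP fasted 1 (0.42, adjusted p = 0.065), without GFP refed 2 (0.44, adjusted p = 0.0627) and without the 4 deeper libraries (adjusted p = 0.104), and the latter without any single acute knockout library except Cre refed 3 (adjusted p = 0.0689 to 0.139).

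In wild-type constitutive livers Akt1 was at 13.5, 13.5 and 14.2 FPKM fasted and 17.3, 15.6 and 14.9 FPKM refed, higher without overlap but not past the test (0.20 ± 0.09, limma, adjusted p = 0.318). There 10.2% of all genes were higher without overlap. Constitutive knockouts overlapped, at 13.1, 13.9 and 12.8 FPKM fasted and 16.7, 13.2 and 14.2 FPKM refed (0.13 ± 0.09, adjusted p = 0.369). The mean of the 4 arms was 0.30 ± 0.05 (adjusted p = 7.68e-05), and between knockout and control Akt1 moved by at most 0.11 in size, in the refed constitutive livers (-0.11 ± 0.09).

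Akt2, the form that predominates in liver and other insulin target tissues, was the most abundant and steadiest member. Its level lay between 28.2 and 35.8 FPKM, and the mean refeeding change was 0.06 ± 0.04 (95% interval -0.02 to 0.13; limma, adjusted p = 0.216). Refed acute controls were above fasted ones without overlap (31.9 to 35.8 against 29.7 to 30.7 FPKM), a change of 0.15 ± 0.07 that did not pass (adjusted p = 0.253). Within a library Akt2 was 2.13 to 2.46 times Akt1 in fasted livers of all 4 groups. After refeeding the ratio was 1.64 to 1.95 in acute controls, 1.63 to 1.87 in acute knockouts and 1.90 to 2.01 in wild-type livers, each below its fasted group without overlap, and 2.03 to 2.18 in constitutive knockouts, which overlapped. Pdpk1, the kinase that phosphorylates Akt in its activation loop, ranged from 2.40 to 4.68 FPKM and had a mean refeeding change of -0.02 ± 0.06 (adjusted p = 0.823).

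The 2 inhibitory adaptors differed in level and in direction. Grb14, which binds the activated receptor and blocks its kinase, was abundant and lower after refeeding. Its level was 23.1, 27.2 and 28.1 FPKM in fasted and 23.6, 18.1 and 20.7 FPKM in refed acute controls, overlapping by 1 library (-0.32 ± 0.10, limma, adjusted p = 0.0938). Acute knockouts went from 29.5, 26.8 and 26.9 FPKM to 24.4, 22.3 and 24 FPKM without overlap (-0.23 ± 0.10, adjusted p = 0.214). Constitutive knockouts went from 24.4, 29.7 and 25.4 FPKM to 22.2, 19.9 and 21.1 FPKM, also without overlap (-0.31 ± 0.13, adjusted p = 0.161).

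Wild-type livers, where a single library stood at 31.6 FPKM, had Grb14 at 31.6, 20.4 and 24.3 FPKM fasted and 24.1, 23.9 and 22.6 FPKM refed (-0.09 ± 0.13). None of the 4 arms passed alone, but the mean did: Grb14 fell by 0.24 ± 0.06 (limma, adjusted p = 0.00646). Knockouts and controls differed by 0.09 ± 0.10 and 0.18 ± 0.10 in fasted and refed acute livers and by 0.07 ± 0.13 and -0.15 ± 0.13 in fasted and refed constitutive livers. In refed constitutive livers all 3 knockouts were below the controls for Grb14 and for Pdpk1 (2.40 to 3.36 against 3.38 to 3.91 FPKM), as were 8.5% of all genes tested.

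Grb10, a related adaptor from an imprinted gene, had a group mean under 1 FPKM in all groups except refed acute knockouts. Its level was 0.526, 0.375 and 0.363 FPKM in fasted and 0.972, 0.687 and 0.778 FPKM in refed acute controls. Acute knockouts went from 0.558, 0.275 and 0.382 FPKM to 1.63, 0.607 and 0.929 FPKM. Refed libraries were above fasted ones without overlap in both, and in wild-type livers as well (0.497 to 0.755 against 0.389 to 0.492 FPKM), while constitutive knockouts overlapped (0.413 to 0.647 against 0.40 to 0.612 FPKM).

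In the fit with no filter, which called 17.7% of its genes, Grb10 rose by 0.27 ± 0.06 on the log2(FPKM + 1) scale in the mean of the 4 arms (limma, adjusted p = 0.00596). With a pseudocount of 0.1 in place of 1 the same change was 0.62, since a pseudocount of 1 is larger than the level in all but 1 of the 24 libraries. The 4 arms alone did not pass, with adjusted p from 0.116 in acute knockouts to 0.893 in constitutive knockouts. These values rest on 11 to 148 fragments a library. As with Irs2, at 19 to 367 fragments, counting error alone is wide here: the deposited 95% bounds lay up to 59.9% from the value for Grb10 and up to 46.4% for Irs2, against 6.3% at most for Insr. Within a library Grb14 exceeded Grb10 by 39.9 to 97.6 times in fasted and 14.9 to 51.1 times in refed livers.

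No member passed between knockout and control. In limma 0 of 9 were called in each of the 4 knockout comparisons, where 0.297% (acute fasted), 0.105% (acute refed), 0.0964% (constitutive fasted) and 0.0289% (constitutive refed) of all genes were. At an unadjusted p under 0.05, Irs2, Insr and Pik3r1 were counted in acute fasted livers, and no member in the others, where the shares of all genes at that p were 12.3% (acute fasted), 9.09% (acute refed), 6.56% (constitutive fasted) and 10.8% (constitutive refed). In the mean of both models 0 of 9 were called, against 0.814% of all genes fasted and 0.674% refed, with Irs2 (-0.43 ± 0.14, adjusted p = 0.182), Insr (-0.18 ± 0.08, adjusted p = 0.38) and Pik3r1 (0.25 ± 0.09, adjusted p = 0.287) under an unadjusted 0.05 in the fasted state, as were 11.3% of all genes, and no member but 9.7% of all genes in the refed state. In fasted acute livers the intervals of Irs2 (-1.26 to -0.51), Insr (-0.46 to -0.07) and Pik3r1 (0.04 to 0.45) excluded 0. Changes within them could have been missed by the test over all genes. Those of the other members spanned 0, for example -0.16 to 0.17 for Akt2 and -0.20 to 0.23 for Akt1. For Irs2 in fasted constitutive livers the interval was -0.42 to 0.46. All are on the log2(FPKM + 1) scale, so for low genes such as Irs2 they understate the change in level that could have been missed. In the constitutive interaction 0 of 9 members and 0% of all genes were called (4.4% of all genes at an unadjusted p under 0.05, none of them a member).

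**Figure D4:**
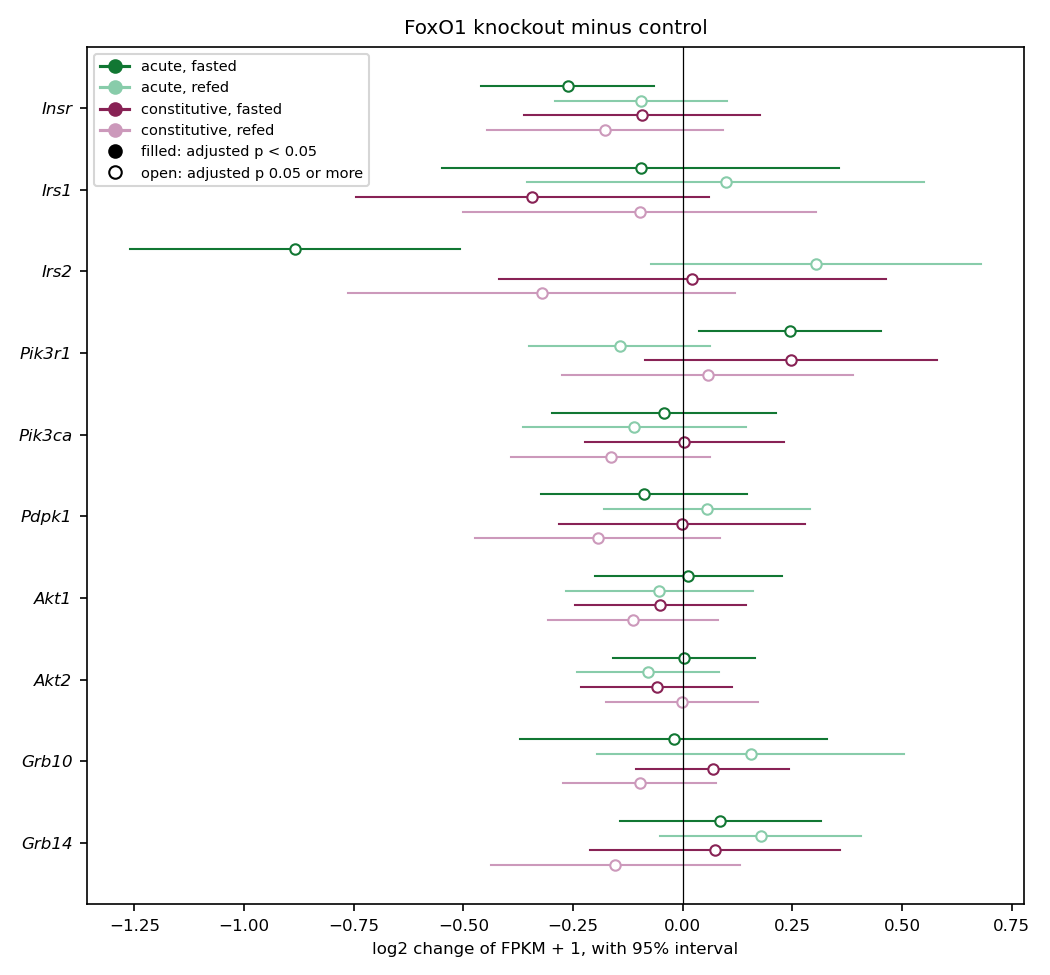
Difference of each gene between FoxO1 knockout and control liver as log2 of FPKM + 1 (horizontal axis) in both models and feeding states, with 95% intervals from limma; all points are open because none passed the test, and Grb10 is from the fit with no filter. Irs2 in acute fasted liver lies at -0.88, while Akt1 and Akt2 lie between -0.11 and 0.01 in all 4 comparisons.

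The wider pathway was read from a list of 76 genes that holds the 10 members, and 62 of the 76 passed the filter. This list too was chosen with earlier results known, so shares of all genes are given for scale only. In acute controls 4 of 62 rose and 3 fell on refeeding (median log2 change 0.05, against 0.08 for all genes), where 4.81% of all genes rose and 1.75% fell. Besides the members these were Trib3 (-1.82 ± 0.20), a pseudokinase that binds Akt, Grb7 (-0.79 ± 0.12), an adaptor of the family of Grb10 and Grb14, Socs2 (1.5 ± 0.25), a suppressor of cytokine signalling, and Ptpn1 (0.44 ± 0.11), the phosphatase that removes phosphate from the receptor. All 4 belong to the inhibitors and phosphatases of the list, and their adjusted p-values in limma ran from 0.00125 to 0.0374. The call of Ptpn1 was lost in 11 of 13 alternatives, among them the omission of any single control library except GFP refed 1 (adjusted p = 0.0527 to 0.116).

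In acute knockouts, where 4.3% of all genes rose and 1.15% fell, 2 of 62 rose, both members, and 3 fell: Trib3 (-1.46 ± 0.20), Grb7 (-0.57 ± 0.12) and Rictor (-0.54 ± 0.12), a subunit of the kinase complex that phosphorylates Akt (limma, adjusted p = 0.00596 to 0.0267). Grb7 lost its call without any of Cre fasted 1, 2 and 3 and Cre refed 1 and 2 (adjusted p = 0.0537 to 0.0839), and Rictor without any of Cre fasted 2 and 3 and Cre refed 1 and 2 (adjusted p = 0.0695 to 0.104). Constitutive controls had 0 of 62 called, where 0.318% of all genes were. In constitutive knockouts, where 2% of all genes rose and 3.68% fell, 1 of 62 rose, the ribosomal protein gene Rps6 (0.32 ± 0.07), and 3 fell, namely Tsc1 (-0.66 ± 0.10), which restrains mTOR, Rictor (-0.45 ± 0.09) and Ceacam1 (-0.37 ± 0.07), which takes part in insulin clearance (adjusted p = 0.0069 to 0.0269). Of these, Tsc1 alone kept its call whichever library was omitted. Rictor and Rps6 lost theirs without any single knockout library except KO refed 3, and Ceacam1 without KO fasted 1, 2 or 3 or KO refed 2 (adjusted p = 0.0522 to 0.101). None of the 62 passed in any of the 4 knockout comparisons, where 0.0289% to 0.297% of all genes did. Nor did any pass in the mean of both models, where 0.814% (fasted) and 0.674% (refed) of all genes did. With shares so small, a count of 0 says little about the list.

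In the mean of the 4 arms 11 of 62 rose and 10 fell, with a median log2 change of 0.01 against 0.04 for all genes, of which 19.9% rose and 10.4% fell. Without the members these counts were 9 and 8 of 53. The 8 largest changes were those of Trib3 (-1.16 ± 0.12), Socs2 (0.97 ± 0.17), Irs2, Pik3r1, Grb7 (-0.53 ± 0.06), Tsc1 (-0.44 ± 0.06), Rictor (-0.37 ± 0.05) and Akt1. By role, receptors and adaptors had 0 higher and 2 lower of 9, PI3-kinase subunits 1 and 0 of 6, Akt kinases and their activators 2 and 3 of 8, inhibitors and phosphatases 4 and 4 of 18, and targets downstream of Akt 4 and 1 of 21. With so few genes a role and 30.3% of all genes called, these counts are given as a description, and roles were not tested against each other.

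**Figure D5:**
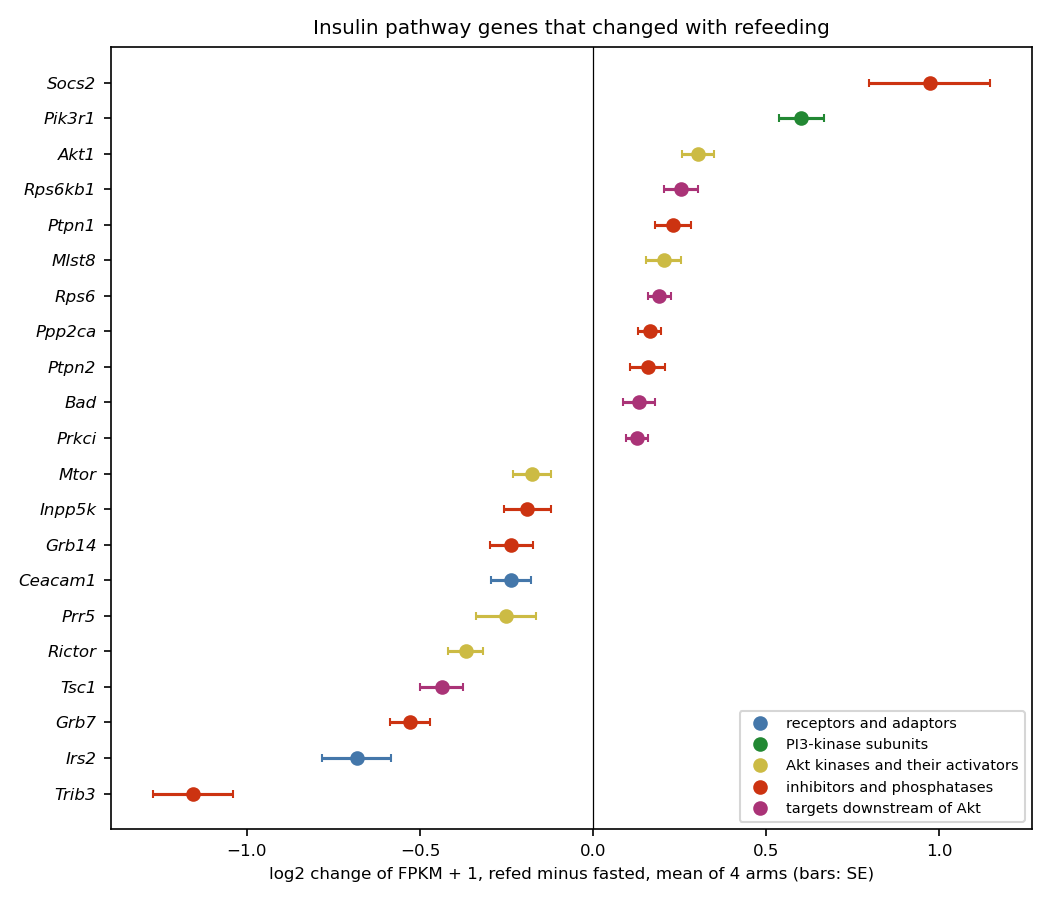
Mean refeeding change over the 4 arms as log2 of FPKM + 1 (horizontal axis, bars are SE) of the 21 pathway genes that passed the test, coloured by role. Of these, 11 lie to the right of 0, led by Socs2 and Pik3r1, and 10 to the left, led by Trib3 and Irs2.

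Genes whose levels followed those of a member most closely were found by Pearson correlation of log2(FPKM + 1) over the 24 libraries, which share feeding state, genotype and model, so that a high value describes a like pattern over these groups and no more. For Irs2 they were Slc19a2, a thiamine transporter (r = 0.834, Spearman rho = 0.791), Ppargc1b, a transcriptional coactivator (0.821 and 0.737), and the ubiquitin ligase gene Rffl (0.821 and 0.793). Ppargc1b had group means of 2.28 FPKM in acute GFP fasted and 0.683 FPKM in acute GFP refed livers, its highest and lowest. For Pik3r1 they were Plekha8 (0.902 and 0.847), Alas1, the first enzyme of haem synthesis (0.889 and 0.881), and Fam35a (0.888 and 0.881). Alas1 was at 154 ± 20.8 FPKM in fasted and 584 ± 32.4 FPKM in refed acute controls (SD, n = 3 each).

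For Akt1 the closest were Tada2b (r = 0.90, rho = 0.851), Usp16 (0.899 and 0.858) and Exoc8 (0.897 and 0.84). For Grb14 they included Lgals9 (0.837 and 0.829) and Cs, the citrate synthase gene (0.815 and 0.76). For Grb10 they were Zfp324 (0.90 and 0.832), Bop1 (0.856 and 0.847) and Adipor2, an adiponectin receptor (0.851 and 0.908). No other member of the 10 was among the 3 closest genes of any of these 5. Grb10 could not appear among those of the others, since only genes that passed the filter were searched.

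By position (mm10, starts counted from 1), Insr lies on chromosome 8 from 3150922 to 3279617 and Irs2 on the same chromosome from 10986964 to 11008430. Irs1 lies on chromosome 1 from 82233105 to 82291439, Pik3r1 on chromosome 13 from 101680762 to 101768217 and Pik3ca on chromosome 3 from 32436151 to 32468486. Pdpk1 is on chromosome 17 from 24073680 to 24141594, Akt1 on chromosome 12 from 112653821 to 112674276 and Akt2 on chromosome 7 from 27591560 to 27639453. Grb10 is on chromosome 11 from 11930499 to 12037420 and Grb14 on chromosome 2 from 64912482 to 65022766. The deposited values are 1 per locus, so isoforms from the different start sites listed with them for Pik3r1, Pdpk1, Akt2 and Grb10 were not separated. Akt1 had 1 start site listed there and 2 in RefSeq.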

How the data were processed

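Polyadenylated RNA of mouse liver was sequenced in 24 libraries made with a stranded kit, per the labels' protocols. The authors deposited a table per library with the FPKM of each locus and its lower and upper confidence bound, from HISAT2, Cufflinks and Cuffdiff on mm10, per the submitters' processing notes. Versions and the treatment of strand are not given in the sources used here. FPKM are not counts, so no count test was used. Of the values that the bounds put under 10 fragments, 64.9% to 67.2% implied a fragment number no more than 0.05 from an integer (10% by chance). Fragment numbers were read from the upper bounds, and relative depths from fragments per FPKM at loci well covered in every library. The bounds cover counting error only.

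Groups came from titles and characteristics. The 14 loci with a failed status in some library were dropped. Members were matched by symbol, and the pathway list and markers likewise. Members and lists were chosen with earlier results of these data known. Genes at 1 FPKM or more in at least 3 fitted libraries entered limma 3.58.1 on the log2(FPKM + 1) scale (eBayes with a mean trend; R 4.3.3), with 1 coefficient per group over the 12 libraries of a model (10452 acute and 10375 constitutive genes) or all 24 (10682 genes). Tests were two-sided, and Benjamini-Hochberg adjustment ran over all genes of a fit, with calls under 0.05. All 10 members were named in every comparison, Foxo1 as the check of labels, called pathway genes (the 8 largest where more were called) and the 3 genes closest to each called member, of which 1 is not reported here. Other names were chosen after their values were seen.

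Alternatives were no filter, a pseudocount of 0.1, scaling by median of ratios, only the groups compared, the replicate number as a block, the 4 deeper acute libraries left out and each library left out. A pseudocount of 0.1 with no filter was added after seeing the level of Grb10. On simulated data with known changes, the test for refeeding in acute controls, over 10452 genes, found 76.1% of 1.5-fold, 92.5% of 2-fold and 98.5% of 4-fold changes and called 4 unchanged genes. Of 1.5-fold changes it found 53.7% for the knockout in acute refed livers, and for the acute interaction (10452 genes each) 38.8%, with 77.6% of 2-fold changes. Over the 16 comparisons up to 13 unchanged genes were called. The known changes were set on the log2(FPKM + 1) scale, and only in genes with a mean above about 4 FPKM. Irs1, Irs2, Pik3ca and Grb10 lay below that level and Pdpk1 near it. The rates found therefore do not cover these low members. File starts count from 0: start plus 1 equalled the RefSeq start for 11603 of 21016 matched loci. Promoters were searched in RefSeq windows (GRCm38.p6) with Python 3.11.15 (pandas 2.3.3, numpy 2.4.6); figures used matplotlib 3.10.9.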

Additional observations from a re-analysis of the deposited data

How the results depend on the processing

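Of the counts of members called, that for refeeding in acute knockouts alone moved by more than 1.5 times: from 2 to 1 with no filter, with median-of-ratios scaling, with only the groups compared, with the replicate block and with a pseudocount of 0.1 and no filter, to 0 with the 4 deeper acute libraries left out, and to between 1 and 2 with single libraries left out. The member lost was Akt1, whose call there failed in 11 of 13 alternatives (adjusted p = 0.0537 to 0.216), and without the deeper libraries Pik3r1 failed as well (0.81, adjusted p = 0.0521). Akt1 in acute controls also failed with only the groups compared (adjusted p = 0.0574). Grb14 in acute controls passed with median-of-ratios scaling (-0.41, adjusted p = 0.0478), and the mean refeeding change of Irs1 passed in 4 of 30 alternatives (adjusted p down to 0.0274). The mean refeeding calls of Irs2 (-1.07 to -0.63), Pik3r1 (0.56 to 0.65), Akt1 (0.26 to 0.32) and Grb14 (-0.28 to -0.20) held in all 30 and that of Grb10 in all 28 that gave a value. The fall of Irs2 in acute controls ranged from -2.31 to -1.38 and the rise of Pik3r1 from 1.00 to 1.17, past the threshold in all 13 alternatives. No called value changed sign. The cause of these changes was not tested.

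Median-of-ratios scaling changed the split of calls over all genes into higher and lower, from 503 and 183 to 262 and 308 in acute controls, from 449 and 120 to 189 and 175 in acute knockouts, from 16 and 17 to 29 and 53 in constitutive controls, from 207 and 382 to 391 and 435 in constitutive knockouts and from 2128 and 1108 to 1576 and 1606 in the mean of the refeeding effects. It moved the median of all genes by less than 0.1. The replicate numbers did not meet the condition for pairing, deviations correlated over 0.1 in every pair: of 18 same-numbered pairs, 5 in the acute and 8 in the constitutive model had correlated deviations over 0.1, and 3 and 9 of 12 libraries correlated best with their own number, which for the constitutive model is a hint of pairing from the data, not from the design. With the replicate block the calls over all genes went from 686 to 457 and from 569 to 306 for refeeding in acute controls and knockouts, and from 33 to 80 and from 589 to 800 in constitutive ones. Depth limits Grb10 and Irs2 most, at as few as 11 and 19 fragments a library.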
